A study of Rattus norvegicus with 14 samples.

Results

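MiR-126 and miR-126* (rno-miR-126 and rno-miR-126* on the array), the strands of 1 hairpin microRNA (miRNA) that is abundant in endothelial cells, were followed in rat pancreatic islets in pregnancy. They are 2 of the 350 rat miRNAs on the islet arrays and were chosen by name, with earlier results of these data known. The 1-colour arrays measured islets of female rats on day 14 of gestation (4 arrays) and of control female rats (4 arrays). The study asked which miRNAs change as the beta-cell mass expands in pregnancy; its messenger RNA arrays of the INS832/13 cell line are not used here. The labels give no strain, age or treatment, and the replicates are called biological with no animal named. The p-values therefore cover the variation among 8 arrays, a number that limits precision, and part of it may be technical.

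A miRNA hairpin is cut into a duplex of short strands, and one strand is usually kept in the silencing complex, where bases 2 to 8, the seed, pair with target messenger RNAs. MiR-126 is made from an intron of Egfl7, the gene of a protein secreted by endothelial cells, and in mice and zebrafish its loss weakens vessels, since it restrains inhibitors of growth-factor signalling such as Spred1 and Pik3r2. Islets are densely supplied with capillaries, whose endothelial cells lie beside the beta cells; miR-126 is also found in platelets and blood progenitor cells.

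The mature sequences show how far apart the strands are as regulators, since they share no seed. Sequences and positions are those of RefSeq on build GRCr8, where both array names matched 1 arm each. MiR-126 is the 3′ arm, now named miR-126a-3p, at chr3:29813219-29813240 on the plus strand, and miR-126* the 5′ arm, miR-126a-5p, at chr3:29813182-29813202 on the plus strand. The hairpin spans chr3:29813174-29813246, inside Egfl7 at chr3:29802481-29814966. Capitals mark the seed in the first pair of lines.
miR-126: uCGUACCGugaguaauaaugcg
miR-126*: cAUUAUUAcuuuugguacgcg
The same strands are given again with capitals on their longest run of unbroken Watson-Crick pairing, 10 bases, formed by bases 11 to 20 of miR-126 and bases 1 to 10 of miR-126*.
miR-126: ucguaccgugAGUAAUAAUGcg
miR-126*: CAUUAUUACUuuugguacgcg
The seed of miR-126 lies outside this run and that of miR-126* inside it. Among the 724 mature rat miRNAs of the table each of these seeds occurs once, so neither strand has a seed relative there. MiR-126 is 22 bases long with a GC content of 45.5%, and miR-126* is 21 bases long with 38.1%.

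Some arrays stood apart. Signals were scaled to the 75th percentile of the 153 miRNAs detected on all 8 arrays and are called normalised signals (linear, arbitrary units). The 7 leukocyte and platelet miRNAs on the array summed to 5493 in pregnant replicate 2, against 697 to 887 in the other pregnant arrays and 872 to 1133 in control arrays. The 14 mural and stromal miRNAs (of vessel muscle, pericytes and fibroblasts) summed to 11417 in control replicate 2, against 5000 to 5817 in the other control arrays. The arrays held 157 to 188 detected miRNAs each, with summed signals of 148467 to 229760. A digit in the name of each array was read as its row on the slide, which no label states. So read, row 1 held 3 pregnant arrays and 1 control array, and row 2 held 1 pregnant and 3 control arrays.

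MiR-126 was a well measured islet miRNA, detected on all 8 arrays. By mean normalised signal it stood at place 27 of 350 in pregnant islets and at place 27 in control islets, and its unnormalized signal was 33.2 to 61.1 times that of the brightest of 6 negative control features (NC1 and NC2) in pregnant arrays and 40.7 to 80 times in control arrays. Its normalised signal was 1358, 1683, 1247 and 1425 in pregnant replicates 1 to 4, and 1727, 1719, 1626 and 1725 in control replicates 1 to 4. Pregnant replicates 1, 3 and 4 lay below every control array, while replicate 2, the array high in leukocyte miRNAs, lay between control replicates 3 and 2. The groups therefore overlapped, where those of 25 of the 171 miRNAs tested did not (14.6%), 16 of them lower in pregnancy (9.36%).

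On normalised signals the control arrays agreed closely for this miRNA. The SD of its log2 signal was 0.18 over the pregnant arrays, equal to the median SD of the 171 miRNAs tested, and 0.04 over the control arrays, the ninth smallest of the 171 there, against a median of 0.17. In the pregnant arrays replicate 2 was the highest and replicate 3 the lowest. The closer agreement of the control arrays depended on the scaling. In the authors' deposited log2 values the SD was 0.113 over the pregnant arrays and 0.116 over the control arrays. The coefficient of variation of the unnormalized signal was 19.9% in both groups.

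MiR-126* was a faint strand, at place 139 of 350 in pregnant islets and place 141 in control islets by mean normalised signal. It was flagged as detected on 3 of 4 pregnant arrays and on 4 of 4 control arrays. Its normalised signal was 40.8, 53.8, 33.2 and 44.6 in pregnant replicates 1 to 4, and 49.1, 44.4, 35.9 and 45.5 in control replicates 1 to 4. Pregnant replicate 3 was the undetected array, so its value gives an upper bound. The arrays of both groups lay in one range, with the highest and the lowest value both in pregnant islets.

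The margin of miR-126* over background was narrow. On the 7 arrays that detected it, its unnormalized signal was 1.05 to 2.28 times that of the brightest of the 6 negative control features, and on pregnant replicate 3 it was 0.883 times. The feature named NegativeControl, a total over spots whose number is not given in the sources used here, read 54.2 to 65.7 in pregnant arrays and 16.7 to 45.9 in control arrays, so it was higher in all 4 pregnant arrays (exact permutation p = 0.0286, 2-sided, the smallest that 4 against 4 arrays can give). The unnormalized signal of miR-126* was 0.444 to 0.9 times that of NegativeControl in pregnant arrays and 0.805 to 2.08 times in control arrays. The mean of the 6 NC features was 20.9 to 25.2 in pregnant arrays and 12.3 to 22.3 in control arrays, which overlap. The strand ratio is therefore given also with the NC mean subtracted.

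**Figure D1:**
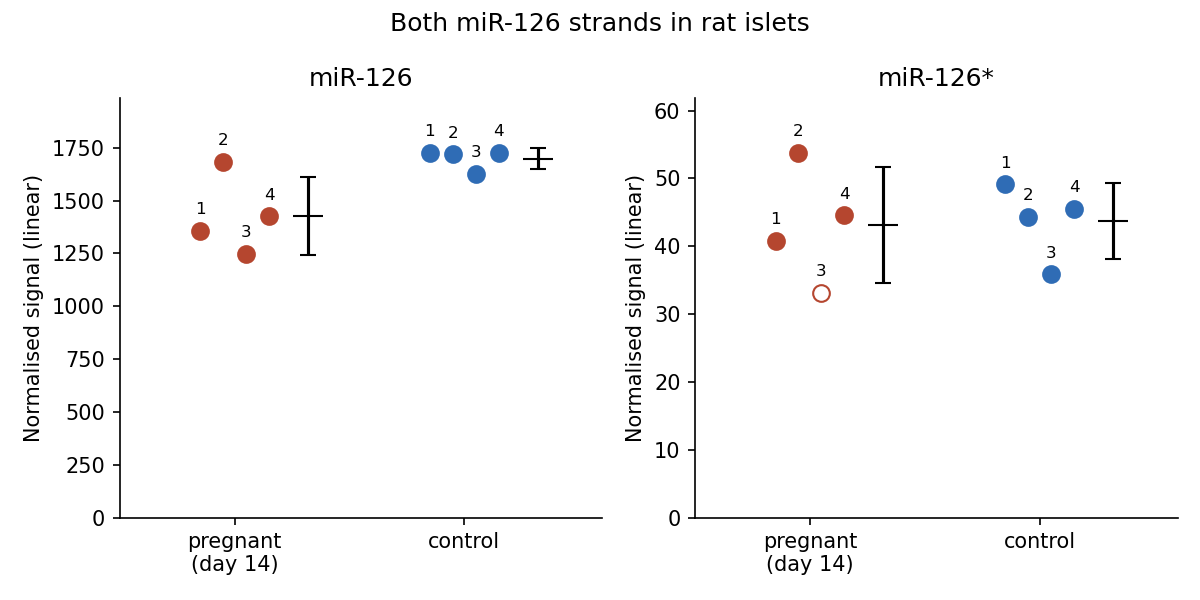
Normalised signal (linear axis from 0) of miR-126, left, and miR-126*, right, with 1 point per array, numbered by replicate, for pregnant and control islets; bars give the mean ± SD (n = 4 per group) and the open point an array where the strand was not flagged as detected. For miR-126, pregnant replicates 1, 3 and 4 (1247 to 1425) lie below all control arrays (1626 to 1727), and for miR-126* the groups share a range.

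Neither strand passed the threshold between pregnant and control islets. MiR-126 averaged 1428 ± 185 in pregnant islets and 1699 ± 48.9 in control islets (normalised signal, SD, n = 4 each). Its log2 change, pregnant minus control, was -0.26 (SE 0.10, 95% interval -0.48 to -0.03, limma unadjusted p = 0.0300, adjusted p = 0.142), a signal 1.20-fold lower in pregnant islets. In bulk islets fewer endothelial cells and less miR-126 per cell cannot be told apart, nor can either be told from more endocrine RNA. MiR-126* averaged 43.1 ± 8.57 in pregnant islets and 43.7 ± 5.63 in control islets (SD, n = 4 each), a log2 change of -0.03 (SE 0.16, 95% interval -0.41 to 0.35, limma adjusted p = 0.902). So 0 of the 2 strands were called by limma at an adjusted p under 0.05, where 8 of all 171 miRNAs tested were (4.68%), 4 higher (2.34%) and 4 lower (2.34%), and 1 of the 2 had an unadjusted p under 0.05, where 42 of 171 did (24.6%). The interval of miR-126* runs from a signal 0.752 times to one 1.27 times that of control islets, so changes within that range in either direction are not excluded. The exact permutation test of 4 against 4 arrays gave p = 0.0571 for miR-126 and p = 0.886 for miR-126* (both 2-sided).

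The call for miR-126 turned on 1 array. Without pregnant replicate 2 its log2 change was -0.34 (SE 0.07, limma adjusted p = 0.0358) and it was called lower, together with 18 other miRNAs. Without any other single array it stayed between -0.28 and -0.20 and was not called, where 0 to 2 of all 171 miRNAs were. Within row 1 of the slide it differed by -0.25, within row 2 by -0.32, and a fit that blocks on the row gave -0.29 (limma adjusted p = 0.179). Within rows 1 and 2 miR-126* differed by -0.05 and -0.08.

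The size of the change depended on the scaling. Scaling to all 350 miRNAs moved every log2 change up by 0.15 and the median over the tested miRNAs to 0.13, from -0.02, which left miR-126 at -0.11; relative to the median it stood at -0.24 under both scalings. Quantile normalization gave -0.10 and the authors' deposited log2 values -0.11, each -0.13 relative to the median. In the authors' deposited values, which are quantile normalized, miR-126 took the same value, 10.49, on pregnant replicates 1 and 3 and on control replicate 2, where it held place 27 of 350 each time. Its places ran from 25 to 28 in pregnant arrays and from 24 to 27 in control arrays. The change of miR-126* had no stable sign: it turned to 0.12 under scaling to all miRNAs, 0.16 with quantile normalization and 0.10 with the authors' deposited values.

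**Figure D2:**
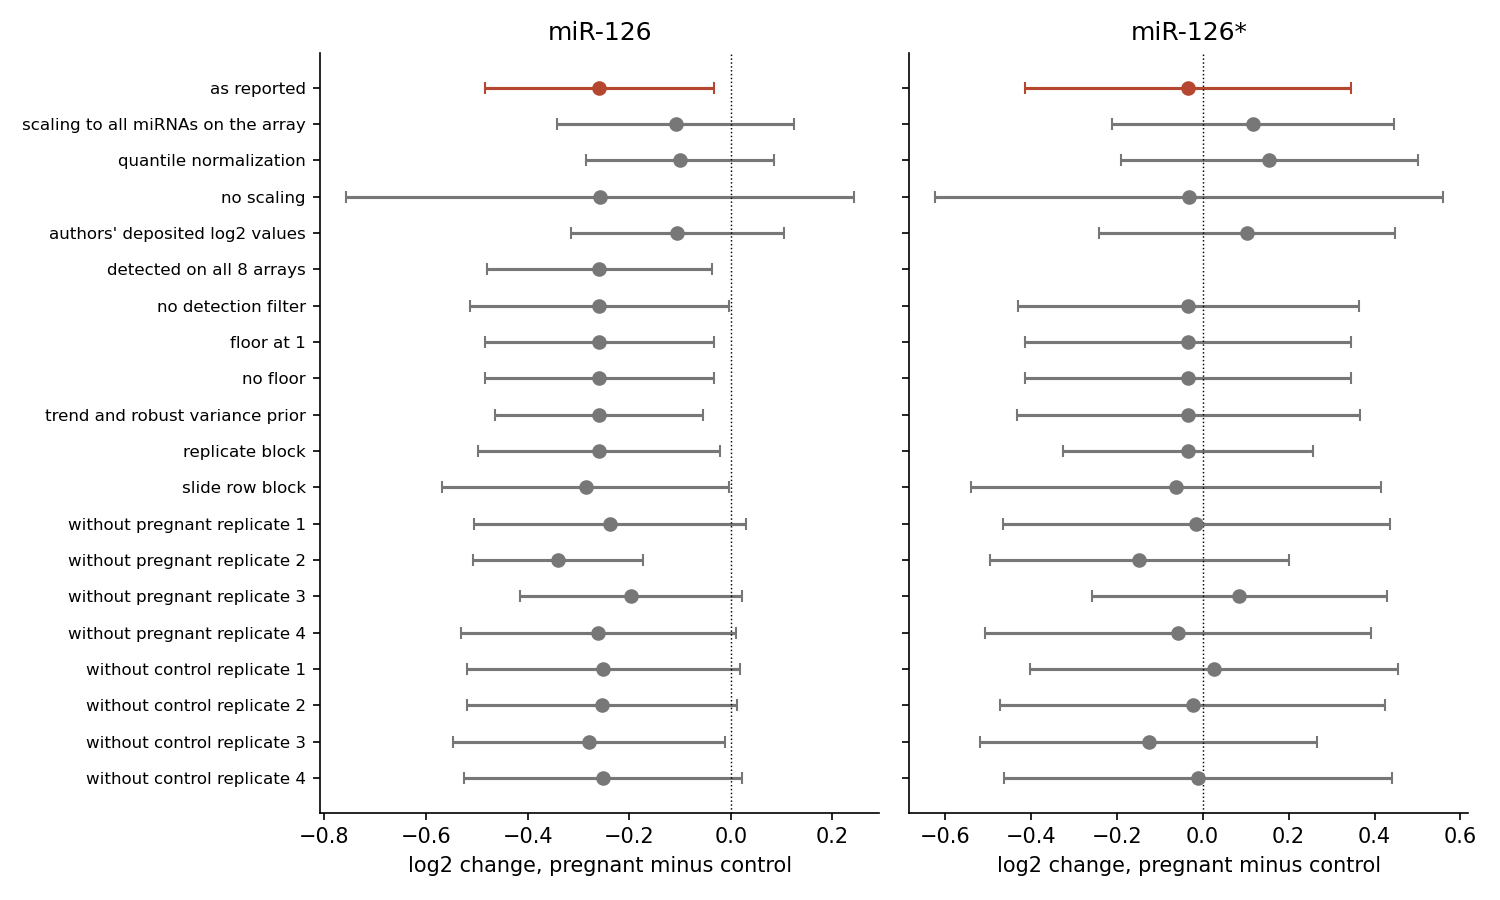
Log2 change (pregnant minus control) with its 95% interval from limma for miR-126, left, and miR-126*, right, in the fit reported (red, top) and in each alternative (grey); every point of the left panel lies below 0. MiR-126* was not tested where detection on all 8 arrays was asked for. The interval of miR-126 is farthest from 0 without pregnant replicate 2.

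The ratio of the strands within an array needs no scaling between arrays. Probes differ in how well they bind, so the ratio is not a count of strands, and only its difference between groups is read. The signal of miR-126 was 33.3, 31.3, 37.6 and 32 times that of miR-126* in pregnant replicates 1 to 4, and 35.1, 38.7, 45.3 and 37.9 times in control replicates 1 to 4. The 3 pregnant arrays that detected both strands lay below all control arrays, and pregnant replicate 3, where the ratio is a bound, lay among them. The ratio averaged 33.5 ± 2.84 in pregnant islets and 39.3 ± 4.33 in control islets (SD, n = 4 each). Its log2 value differed by -0.23, a ratio 1.17-fold lower in pregnant islets (exact permutation p = 0.0571, 2-sided), which did not pass. Over the 7 arrays that detected both strands it differed by -0.28, and the groups did not overlap (exact permutation p = 0.0571, 2-sided). Within slide rows 1 and 2 it differed by -0.21 and -0.24.

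With background taken off, the difference was not larger than the spread between arrays. After the mean of the 6 negative control features was subtracted from both strands on each array, an alternative chosen after the data were seen, the log2 ratio was 6.29 ± 0.57 in pregnant islets and 6.09 ± 0.50 in control islets (SD, n = 4 each), a difference of 0.19 (exact permutation p = 0.629). The sign turned on pregnant replicate 3, which did not detect miR-126* and had the highest ratio after subtraction. Over the 7 arrays that detected both strands the subtracted log2 ratio was 6.04 ± 0.35 in pregnant islets (SD, n = 3) and 6.09 ± 0.50 in control islets (SD, n = 4), a difference of -0.05 (exact permutation p = 0.886).

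The strand ratio of miR-126 was next set among those of other hairpins, on signals without background subtraction. Both arms were tested for 15 hairpins, and limma on their log2 ratios called 0 of 15 (0%), with 1 at an unadjusted p under 0.05. MiR-126 had the sixth largest difference in size (-0.23, SE 0.11, 95% interval -0.47 to 0.02, limma adjusted p = 0.371) and the second smallest spread between arrays, a place that was not computed for subtracted signals, where its own SDs were 0.57 in pregnant islets and 0.50 in control islets. The largest differences were those of miR-125a-5p over miR-125a-3p (1.13, SE 0.57, limma adjusted p = 0.371) and of miR-384-5p over miR-384-3p (-0.68, SE 0.22, limma adjusted p = 0.231).

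**Figure D3:**
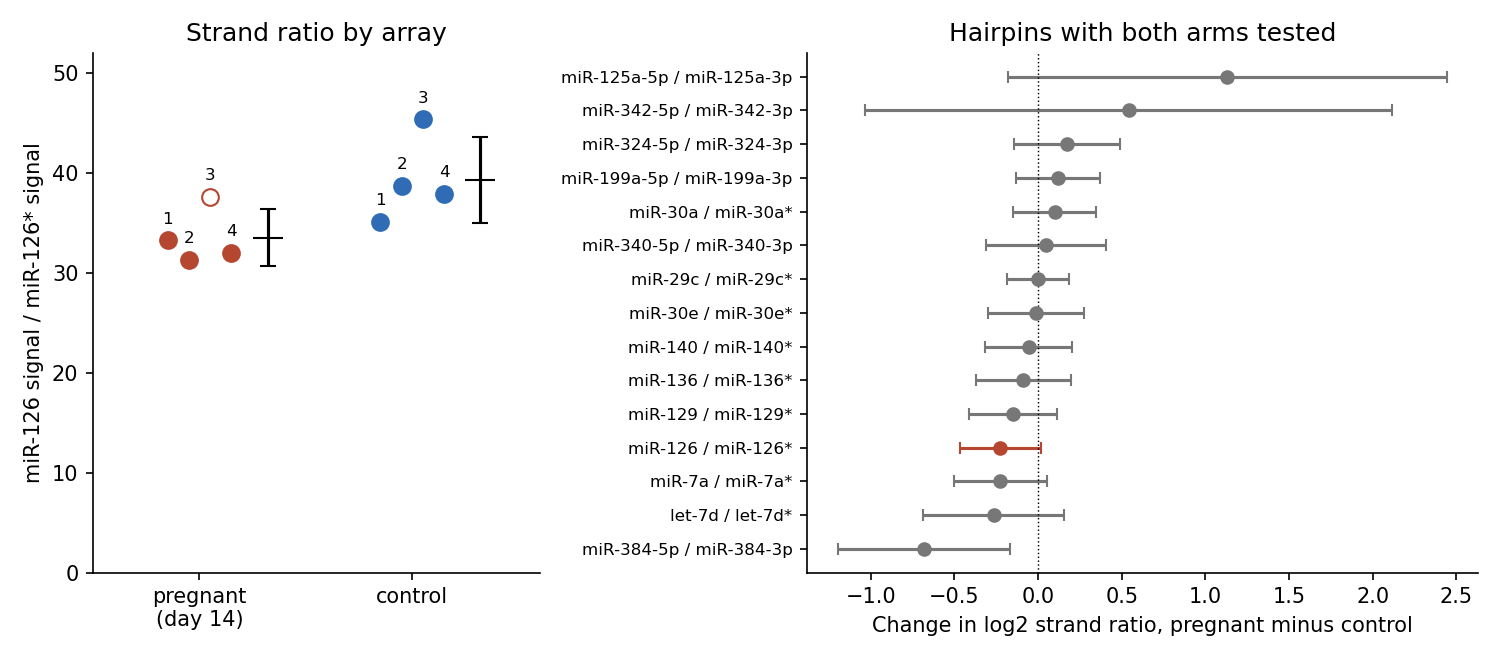
Left, ratio of the unnormalized signals of miR-126 and miR-126* (linear axis from 0) with 1 point per array, numbered by replicate, and the mean ± SD (n = 4 per group); the open point is the array that did not detect miR-126*. Right, change in the log2 strand ratio (pregnant minus control) with its 95% interval for the 15 hairpins with both arms tested, miR-126 in red at -0.23.

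Over the arrays the strands varied together within their groups. On log2 normalised signals Pearson's r was 0.66 (exact permutation p = 0.0835) and Spearman's rho 0.71 (exact permutation p = 0.0576) over 8 arrays, and r was 0.24 without the 2 arrays farthest from the median of miR-126, so the relation of the levels rests on those arrays. Of the deviations from the group means r was 0.91 over the 8 arrays and 0.85 without the 2 arrays where miR-126 deviated most, given as a description. Both strands were highest of the pregnant arrays on replicate 2 and lowest on replicate 3, and lowest of the control arrays on replicate 3.

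To place miR-126 among the cells of the islet preparation, it was set within each array against miRNAs of other cell types. MiR-375 and miR-7a are the leading miRNAs of endocrine cells. On a log2 scale the signal of miR-126 less that of miR-375 was -2.68 ± 0.31 in pregnant islets and -2.48 ± 0.19 in control islets (SD, n = 4 each), a difference of -0.20 (exact permutation p = 0.371, adjusted p = 0.4 over the 5 partners tested, 2-sided). Against miR-7a the difference was -0.16 (exact permutation adjusted p = 0.4).

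Against miR-143, a miRNA of smooth muscle and pericytes, miR-126 stood higher in every pregnant array than in any control array. The log2 difference was 0.93 ± 0.21 in pregnant islets and -0.23 ± 1.12 in control islets (SD, n = 4 each), 1.16 apart (exact permutation p = 0.0286, adjusted p = 0.0714), and 0.62 apart without control replicate 2. The adjusted p missed the threshold. Between the groups miR-143 itself had a log2 change of -1.42 (limma adjusted p = 0.142), and miR-126 one of -0.26. Within slide rows 1 and 2 the groups were 2.71 and 0.84 apart, with control replicate 2 the only control array of row 1. MiR-145, which is made from the same locus as miR-143, was detected on 1 of 8 arrays, control replicate 2, and was not tested.

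Against miR-451, a miRNA of red blood cells, miR-126 stood lower in every pregnant array. The log2 difference was 0.75 ± 0.54 in pregnant islets and 2.15 ± 0.66 in control islets (SD, n = 4 each), a difference between them of -1.40 (exact permutation p = 0.0286, adjusted p = 0.0714). The 5 tests cannot give an adjusted p under 0.05 unless at least 3 of them reach the smallest p. Against miR-142-3p, a leukocyte miRNA, the difference was -1.06 (exact permutation adjusted p = 0.4), and it was -0.08 without pregnant replicate 2, whose normalised signal of miR-142-3p was 3702 against 154 to 269 in the other pregnant arrays and 182 to 362 in control arrays.

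Levels over the 8 arrays were compared between miR-126 and the 152 other miRNAs detected on all of them. The 5 closest were miR-10b (r = 0.98), miR-497 (0.96), miR-195 (0.95), miR-100 (0.92) and miR-320 (0.92), where the median r over all 152 was -0.01. Without the 2 arrays farthest from the median of miR-126 their r were, in this order, 0.97, 0.88, 0.89, 0.79 and 0.81. Of these 5, 4 belong to the mural and stromal list, which had 9 members detected on all 8 arrays. MiR-143 of the same list stood at place 22 of 152 (r = 0.71). These r are taken over both groups, so they include the difference between the groups, and the points share each array's scaling. MiR-10b read 81.2, 195, 77.8 and 108 in pregnant replicates 1 to 4, and 239, 257, 180 and 212 in control replicates 1 to 4, with replicate 2 again the highest pregnant array and inside the control range. Of the deviations from the group means the closest were miR-10b (0.95), miR-146a (0.95), miR-19a (0.93), miR-223 (0.93) and miR-199a-3p (0.92). Without the 2 arrays where miR-126 deviated most their r were, in this order, 0.91, 0.90, 0.61, 0.74 and 0.75. Of these 5, 2 belong to the mural and stromal list, and miR-143 of that list stood at place 48 of 152 (0.39). MiR-146a and miR-223 are leukocyte miRNAs, and miR-223 read 239 in pregnant replicate 2, against 59.3 to 79.2 in the other pregnant arrays and 73.4 to 95.6 in control arrays. For miR-126* the closest levels were those of miR-146a (0.87), miR-199a-3p (0.77) and miR-223 (0.75), and the closest deviations those of miR-126 (0.91), miR-146a (0.87) and miR-10b (0.86). For miR-375 and miR-126 r was -0.21 for levels, place 93 of 152 from the highest, where the median was -0.01. It was -0.55 for deviations, place 114 of 152, where the median was -0.11.

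**Figure D4:**
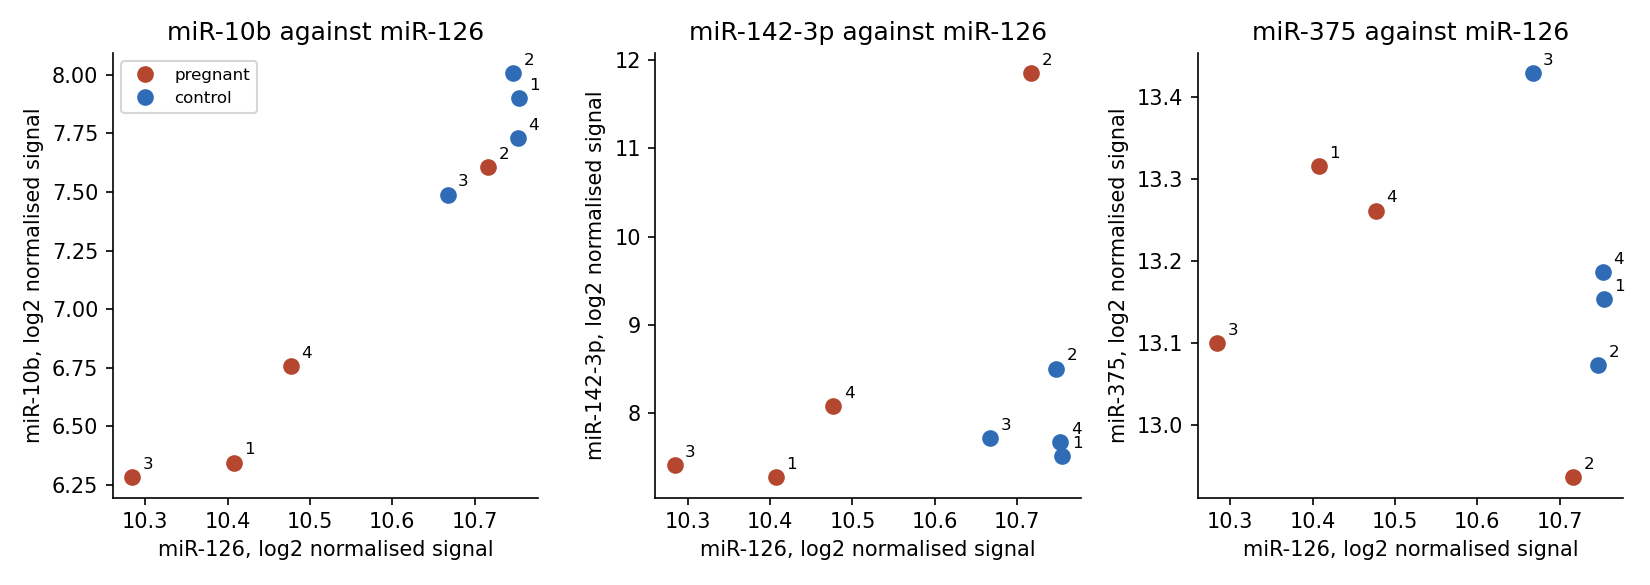
Log2 normalised signal of miR-10b, miR-142-3p and miR-375 against that of miR-126, with 1 point per array, numbered by replicate, in pregnant and control islets; the axes do not start at 0. MiR-10b follows miR-126 over both groups (r = 0.98), and pregnant replicate 2 stands apart for miR-142-3p.

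The mural and stromal miRNAs tested, 10 of the 14 on the array, had log2 changes of one sign, and none passed the test. The mural and stromal list and those below were drawn up with earlier results of these data known, so their counts are descriptions. Of 10 tested mural and stromal miRNAs 0 were called by limma (4.68% of all tested miRNAs were). An unadjusted p under 0.05 was found for 7 of 10 (24.6% of all tested miRNAs). The log2 change was negative for 10 of these 10 miRNAs, as for 89 of all 171. Their median was -0.61, against -0.02 over all tested miRNAs and -0.26 for miR-126, and miR-10b, miR-497, miR-195 and miR-100 of the previous comparison belong to this list. Their summed normalised signal was 3741 to 4763 in pregnant arrays and 5000 to 11417 in control arrays, so the groups did not overlap. Taken one by one, 2 of the 10 did not overlap, where 14.6% of all tested miRNAs did not. The 2 members of smallest p were miR-125b-5p, which averaged 1598 ± 119 in pregnant islets and 2083 ± 220 in control islets (SD, n = 4 each, log2 change -0.38, SE 0.10, limma adjusted p = 0.0717), and miR-100, which averaged 27.3 ± 8.31 in pregnant islets and 54.4 ± 15.6 in control islets (limma adjusted p = 0.0852). Without pregnant replicate 2 the list's median was -0.85 and 4 members were called lower (7.60% of all tested miRNAs were). Without control replicate 2 the median was -0.44 with 0 called, where 0 of all 171 tested miRNAs were. Quantile normalization called 4 of them lower (4.09% of all tested miRNAs), the authors' deposited values 3 (2.92%), and a fit that blocks on the slide row 5 (11.1%). MiR-133a, of muscle, was detected on no array.

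Of 21 tested miRNAs linked to vessel growth, which are also expressed outside the endothelium, 3 were called by limma (4.68% of all tested miRNAs were) and 12 had a negative log2 change, as did 89 of all 171, with a median of -0.20. MiR-27b averaged 5132 ± 498 in pregnant islets and 3620 ± 170 in control islets (SD, n = 4 each) and rose (log2 change 0.50, limma adjusted p = 0.0204). MiR-24, made from a cluster with miR-27b and named here after its value was seen, rose by 0.34 (limma adjusted p = 0.0430). MiR-322, known in humans as miR-424, averaged 110 ± 10.8 in pregnant islets and 156 ± 2.72 in control islets and fell by 0.51 on the log2 scale (limma adjusted p = 0.0204). When the scaling used all miRNAs, 0 of the 21 were called, where 2 of all 171 were. Likewise 0 of the 21 were called in 6 of the 8 omissions of 1 array, all but those of pregnant replicates 2 and 3. Of all 171 miRNAs 1 was called without control replicate 3 and 0 in each of the others of these 6 omissions. Neither the authors' deposited values nor the replicate block called any of the 21 higher, where they called 1 and 3 of all 171 higher. The median was 0.01 without control replicate 2. MiR-10a of this list is named miR-10a-5p on the array and was not counted (log2 change -0.74, limma adjusted p = 0.123). MiR-10b is counted here and in the mural and stromal list.

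The red-cell miRNAs tested had positive log2 changes. MiR-144 averaged 111 ± 57.5 in pregnant islets and 34.3 ± 18.3 in control islets (SD, n = 4 each, log2 change 1.70, limma adjusted p = 0.0852), and miR-451 averaged 903 ± 398 in pregnant islets and 412 ± 188 in control islets (log2 change 1.14, limma adjusted p = 0.123). Both had an unadjusted p under 0.05 (24.6% of all tested miRNAs did) and 0 of 2 were called (4.68% of all tested miRNAs were). The 6 tested leukocyte and platelet miRNAs had a median log2 change of 0.11, and of -0.30 without pregnant replicate 2. Of these 6, 0 were called, against the same 4.68%. Their smallest p belonged to miR-342-3p (log2 change -0.16) and miR-146b (0.07).

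Of 4 endocrine miRNAs tested 0 were called (4.68% of all tested miRNAs were), with a median of -0.08 that turned to 0.07 under scaling to all miRNAs. The list's summed normalised signal was 24231 to 31297 in pregnant arrays and 28057 to 33534 in control arrays. MiR-7b had a log2 change of -0.36 (limma adjusted p = 0.121), with all 4 pregnant arrays below the control arrays, as for 9.36% of all tested miRNAs. MiR-7a* had a log2 change of 0.13 (limma adjusted p = 0.507), and miR-184 was detected on no array. Of the acinar list miR-216a was tested (log2 change -1.12, limma adjusted p = 0.445), with summed signals of 27 to 243 in pregnant arrays and 115 to 314 in control arrays. MiR-192 and miR-194, of liver and gut, had log2 changes of -0.48 and -0.39, neither called, and miR-122 of liver was detected on no array. The part of these cell types in the value of miR-126 was not tested.

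**Figure D5:**
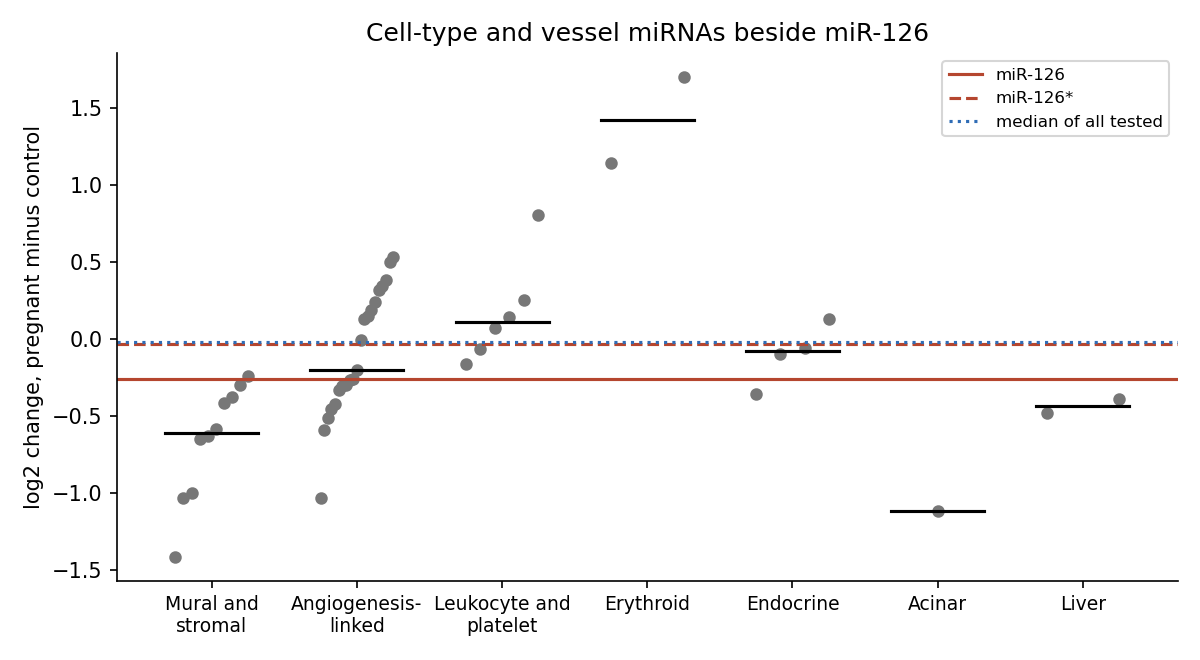
Log2 change (pregnant minus control) of each tested member of the cell-type and vessel-growth lists, 1 point per miRNA, with the median of each list as a black bar and lines for miR-126 (-0.26), miR-126* (-0.03) and the median of all 171 tested miRNAs (-0.02). All 10 mural and stromal miRNAs lie below 0 and both red-cell miRNAs above 0.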

How the data were processed

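Islet total RNA was labelled with 1 dye and hybridised to rat miRNA arrays, per the labels. The authors deposited a linear signal intensity for each miRNA, not normalized, its detection flag, and log2 values normalized between arrays, per the file headers; the software is not given in the sources used here. Signals were divided by the array's 75th percentile, taken over 153 miRNAs that every array detected, and brought back to the mean percentile (factors 0.81 to 1.30), floored at 0.81, the lowest scaled detected signal, and log2 transformed. The 171 miRNAs detected on at least 4 arrays entered limma 3.58.1 (R 4.3.3), as pregnant minus control with no replicate block, 2-sided, with calls at an adjusted p (Benjamini-Hochberg) under 0.05. The fit was tested on simulated data. Ratios within an array used exact permutation tests over 70 assignments, whose smallest p is 0.0286; miR-145, planned as a sixth partner, was not tested. Named miRNAs are the members, the partners, the 2 of smallest p in each list and the closest by Pearson's r. The members and lists were chosen with earlier results of these data known. The slide row was read as a digit of the array names in the file headers. Alternatives were other scalings, filters, floors, variance priors, blocks and leaving out each array. Sequences come from RefSeq.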

Additional observations from a re-analysis of the deposited data

Results flagged for a closer look

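The log2 normalised signal of miR-126 was 10.67 in control replicate 3, while the other 3 control arrays read 10.75 each after rounding. The gap to the nearest array took 0.92 of the group's range, above Dixon's critical value for 4 samples. This was 1 of 26 groups examined, and chance gives about 1 in 20. The group's SD was 0.04, so the gap is small in size, and without this array the log2 change of miR-126 was -0.28, against -0.26 with it. The gap depended on the scaling. In the authors' deposited log2 values control replicate 3 read 10.61, and the lowest control array was replicate 2 at 10.49.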

How the results depend on the processing

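The log2 change of miR-126 was negative under all 20 alternatives run (-0.34 to -0.10, adjusted p 0.0358 to 0.888). Leaving out 1 array gave -0.34 to -0.20, and only the omission of pregnant replicate 2 led to a call. The change of miR-126* turned positive under scaling to all miRNAs (0.12), quantile normalization (0.16), the authors' deposited values (0.10), without pregnant replicate 3 (0.086) and without control replicate 1 (0.026); leaving out 1 array gave -0.15 to 0.09, and it was not tested where detection on all 8 arrays was asked for. The log2 strand ratio changed by 0.19 after subtraction of the negative controls (-0.05 over the arrays that detected both strands) and by -0.28 to -0.15 with 1 array left out. The count of called miRNAs, 8, became 2 under scaling to all miRNAs, 0 with no scaling, 0 with no detection filter and 23 when the slide row was blocked; leaving out 1 array gave 0 to 19. The differences of miR-126 from its 5 partners kept their direction under all 11 alternatives each. In 9 of these the lowest adjusted p of the exact permutation tests was 0.0714; the replicate block cannot go below p = 0.125 and the slide row block has no test. The replicate numbers did not pair the arrays: same-number correlations of deviations ran from -0.49 to 0.17, and 1 of 4 pregnant arrays was closest to its own number. The replicate block gave -0.26 for miR-126 (limma adjusted p = 0.169), -0.03 for miR-126* and 10 calls. The causes of these shifts were not tested. MiR-126* lies near the negative controls, which limits its ratio.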
